A study of Homo sapiens with 4 samples.

Results

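The genes described here encode the numbered cadherins and the protocadherins, chosen as the protein-coding genes whose symbol starts with CDH and a digit or with PCDH. There were 88 of them among the 20372 genes of the count table. By family, 5 were type I classical cadherins, 13 type II classical cadherins, 5 other cadherins, 15 alpha, 16 beta, and 21 gamma clustered protocadherins, and 13 non-clustered protocadherins. Of the 88 genes, 59 lie on chromosome 5, where the clustered protocadherins sit side by side, and 8 lie on chromosome 16.

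RNA was sequenced from TPC1, an established human papillary thyroid carcinoma line that carries the CCDC6-RET rearrangement. All 4 libraries came from cells given BLU6864, a RET inhibitor, for 24 h (2 libraries) or 6 h (2 libraries), so both groups carry the fusion and the drug, and libraries without the drug were not analysed here. The comparison asks which of these genes changed in level while the cells stayed in the inhibitor. Without untreated libraries at both times, longer exposure and longer time in culture cannot be told apart. The labels give a dose of 100 µM and the methods 100 nM, and the labels mark the 24 h libraries alone as a re-analysis, which cannot be told apart from the time of treatment. Nothing states that libraries of 1 time point came from separate cultures, so P values measure the spread between these libraries, which may be technical. In RNA from a whole culture, fewer cells that express a gene and less RNA per cell cannot be told apart.

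Classical cadherins are transmembrane proteins that hold neighboring cells together through calcium-dependent contacts of their outer domains, and their tails bind p120-catenin and beta-catenin, which links them through alpha-catenin to actin. Type I members such as E-cadherin and N-cadherin share a conserved adhesive motif that type II members lack. In the clustered protocadherins, each variable exon has its own promoter, and in the alpha and gamma clusters it is spliced to constant exons shared by the whole cluster. Promoter choice there involves CTCF, cohesin, and DNA methylation, and it is best known from neurons, where it gives single cells different surface identities. The non-clustered protocadherins are separate genes with longer cytoplasmic tails of their own.

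Total counts ranged from 23917056 to 27457040 per library, and the 88 genes together took 0.0447% to 0.0484% of them. Libraries of 1 time point had Spearman correlations of 0.989 or more, libraries of different times 0.972 or less, and those of 1 time point still differed beyond sampling noise. Among the thyroid follicular cell markers reported here, PAX8 was abundant, with raw counts of 20035 and 21660 at 24 h and 19124 and 22978 at 6 h, whereas TSHR and NKX2-1 had no count in any library. The thyroid label therefore rests here on PAX8, FOXE1, and TG, since SLC5A5 reached at most 7 counts. The keratin genes KRT7, KRT8, KRT18, and KRT19 were detected and EPCAM had at most 11 counts, beside high counts of the mesenchymal genes VIM and FN1. White blood cell markers reached at most 5 counts.

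Only 30 of the 88 genes had enough counts to be tested, and these held 99.1% of the counts of the group. A gene was called where edgeR's quasi-likelihood test gave an unadjusted P below 0.01 and the log2 fold change was beyond 0.5 in either direction, with positive values for higher levels at 24 h. CDH16 and CDH20 were called higher at 24 h, while CDH3, CDH4, PCDHGC5, PCDH7, PCDH10, and PCDH9 were called lower. The 2 higher genes stand against a background of 17.4% of all 12876 genes tested, and the 6 lower genes against 17.7%. The counts of the single classes below are to be read against the same shares. With Benjamini-Hochberg adjustment over all genes and no cutoff on size, 7 of the 30 rose and 7 fell at an adjusted P under 0.05, against backgrounds of 33.0% and 32.6%. The time points did not overlap in 19 of the 30 genes, against 81.8% over all genes tested. The median log2 fold change was 0.051 over the 30 genes and 0.0029 over all genes tested, and the called genes ran in both directions.

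**Figure D1:**
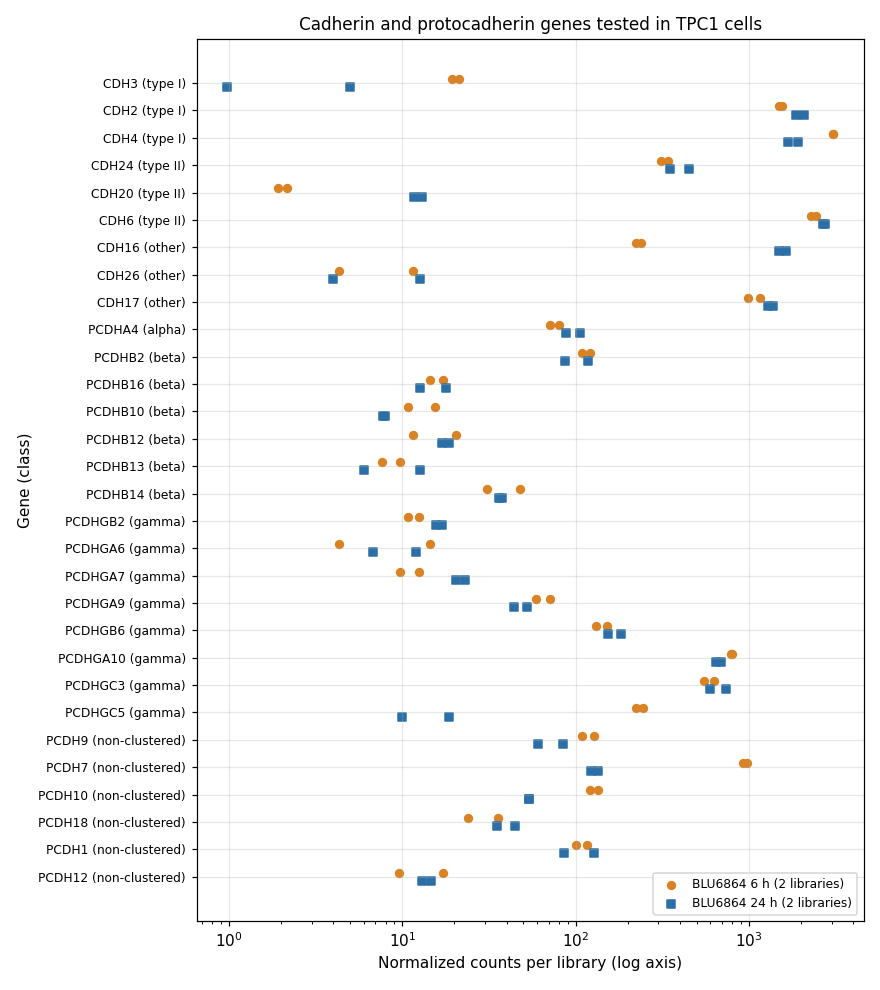
Normalized counts (log axis) of the 30 tested genes in each library, with 6 h libraries as circles and 24 h libraries as squares. CDH16, PCDH7, and PCDHGC5 show the widest gaps between time points among genes with a mean over 100, and most other genes lie close together at both times.

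Per kilobase of transcript, the order of the most expressed genes differed between time points. At 6 h CDH4 led with 459 ± 0.371 normalized counts per kb (SD, n = 2), followed by CDH2 at 380 ± 12.8, CDH17 at 292 ± 33.3, and CDH6 at 278 ± 14.1, and the libraries of CDH17 and CDH6 overlapped. CDH16 was ninth at 6 h with 81.0 ± 3.82 normalized counts per kb. At 24 h CDH16 led with 548 ± 36.7 normalized counts per kb, above CDH2 at 495 ± 36.7, CDH17 at 363 ± 15.7, CDH6 at 318 ± 6.11, and CDH4 at 271 ± 26.2, with no overlap between neighbors in this order. PCDHGC3 at 141 ± 21.2 and PCDHGA10 at 139 ± 6.40 came next at 24 h and overlapped. The order depends on the transcript length used, and for the gamma genes also on how reads of shared exons were counted. In mean normalized counts at 24 h without division by length, CDH6 (2718), CDH2 (1987), and CDH4 (1807) stood above CDH16 (1566). PCDH7 stood at 108 ± 3.20 normalized counts per kb at 6 h and at 14.6 ± 0.953 at 24 h. The leading classical cadherins were thus CDH2, CDH4, and CDH6, the N-, R-, and K-cadherin genes.

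Among the type I classical cadherins, 3 of 5 genes were tested and 2 were called, both lower, beside 17.7% of all genes tested. CDH4 (ENSG00000179242, hg19 chr20:59827482-60515673) encodes R-cadherin, known from retina, kidney, and muscle. Its raw counts were 1690 and 1984 at 24 h and 2838 and 3197 at 6 h, with no overlap between times. The log2 fold change was -0.76 (SE 0.075, edgeR adjusted P = 1.18e-09), and the gene that overlaps it in the table had no count in any library. CDH3 (ENSG00000062038, hg19 chr16:68670092-68756519) encodes P-cadherin, an adhesion protein of basal epithelial layers. It was near the limit of detection, with 5 and 1 counts at 24 h and 18 and 22 at 6 h, and the change was -2.73 on the log2 scale (SE 0.55, edgeR adjusted P = 0.000105). Every 24 h count of CDH3 was below every 6 h count, but the size rests on few reads: it was -4.21 without 24 h replicate 1 and -1.99 without 24 h replicate 2. CDH3 passed the filter through the 6 h libraries alone, and a minimum of 10 counts in every library removed it from the test.

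CDH2, the gene of N-cadherin, which is typical of mesenchymal and neural cells, had raw counts of 1890 and 2149 at 24 h and 1446 and 1551 at 6 h. The counts at 24 h exceeded those at 6 h without overlap, and the log2 fold change, 0.38 (SE 0.073, edgeR adjusted P = 5.48e-05), was below the size cutoff. CDH1, the gene of E-cadherin, the main cadherin of epithelia, had too few counts to be tested, with 1 and 3 at 24 h and 8 and 3 at 6 h. CDH1 lies next to CDH3 on chromosome 16, with 14.6 kb between the end of CDH3 and the start of CDH1. At this depth a change of CDH1 was not detectable.

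Among the type II classical cadherins, 3 of 13 genes were tested, and 5 had no count in any library. Of the 3 tested, 1 was called higher, beside 17.4% of all genes tested. CDH20 (ENSG00000101542, hg19 chr18:59000815-59223006) had 13 and 12 counts at 24 h and 2 and 2 at 6 h, and it passed the filter through the 24 h libraries alone. The ratio of its summed counts was 6.06 after scaling, with a 95% interval of 2.09 to 23.9 that covers counting error only. The fitted log2 fold change of CDH20 was 2.53 (SE 0.64, edgeR adjusted P = 0.00126), and its call was lost with DESeq2 (adjusted P = 0.0465), without 6 h replicate 2 (adjusted P = 0.0258), and with a minimum of 10 counts in every library, which removed it from the test. CDH6, the K-cadherin gene of kidney development, was the most counted type II gene, with 2765 and 2755 counts at 24 h and 2275 and 2382 at 6 h. Its libraries did not overlap between times, and the log2 fold change was 0.20 (SE 0.071, edgeR adjusted P = 0.0168). CDH24 had 353 and 463 counts at 24 h and 287 and 356 at 6 h, which overlap before scaling and not after it, with a log2 fold change of 0.30 (SE 0.11, edgeR adjusted P = 0.0235). Both CDH6 and CDH24 had an adjusted P under 0.05 without reaching the size cutoff, and neither kept it under every alternative. For CDH6 it was 0.0597 with library size alone, 0.0684 without 24 h replicate 1, and 0.154 without 6 h replicate 2. For CDH24 it was 0.135 with DESeq2, 0.0527 with library size alone, 0.157 without 6 h replicate 1, and 0.446 without 24 h replicate 2, where the log2 fold change was 0.12. CDH5, the VE-cadherin gene of endothelium, had at most 1 count in any library. CDH11, a cadherin of osteoblasts and fibroblasts, had 1 and 1 counts at 24 h and 7 and 5 at 6 h, and CDH12 had 9 and 8 at 24 h and 3 and 0 at 6 h, both under the filter.

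CDH16 and CDH17 encode a pair of cadherins with additional outer domains and short tails that do not bind catenins. CDH16 (ENSG00000166589, hg19 chr16:66942025-66952887) encodes kidney-specific cadherin, which is also found in the thyroid follicular epithelium. Its raw counts were 1497 and 1685 at 24 h and 207 and 249 at 6 h. Each 24 h library was far above both 6 h libraries, and normalized counts were 1566 ± 105 at 24 h and 231 ± 10.9 at 6 h (SD, n = 2). The level was 6.76-fold higher at 24 h, or 2.76 on the log2 scale (SE 0.093, edgeR adjusted P = 1.68e-19). Beside it, PAX8 stood at -0.057 on the log2 scale (edgeR adjusted P = 0.545), FOXE1 rose by 0.84, and TG, the thyroglobulin gene, fell by 1.09 on the log2 scale, so the thyroid markers did not move as one. CDH17, the liver-intestine cadherin gene, had 1379 and 1328 counts at 24 h and 1073 and 1027 at 6 h. Its libraries were separated, with a log2 fold change of 0.32 (SE 0.081, edgeR adjusted P = 0.00123) below the size cutoff, and without 6 h replicate 2 this was 0.20 (adjusted P = 0.0688). CDH26 had 4 and 13 counts at 24 h and 4 and 12 at 6 h, with full overlap between times.

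**Figure D2:**
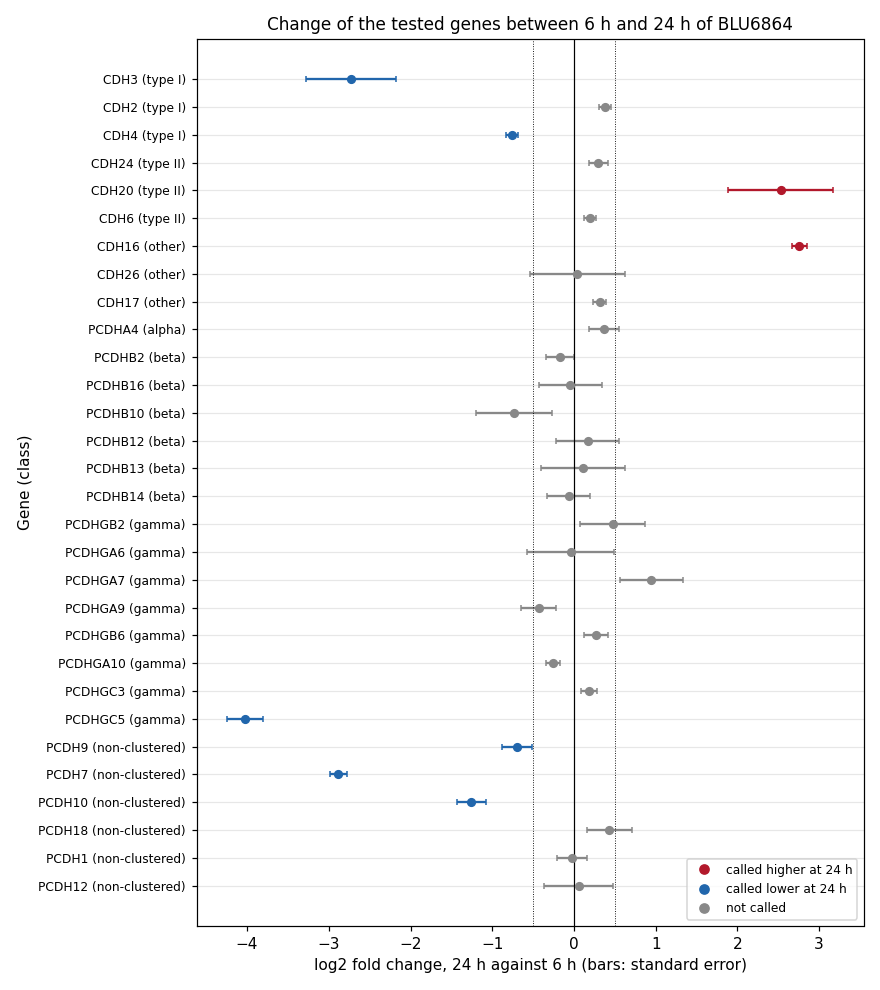
Log2 fold change of each tested gene, 24 h against 6 h, with bars for the standard error and dotted lines at the cutoffs of 0.5 and -0.5. The called genes run from -4.03 for PCDHGC5 to 2.76 for CDH16. Of the 15 tested clustered protocadherins, 1 is called lower and 0 higher, beside 17.7% and 17.4% of all genes tested. Several of the 15, such as PCDHB10, PCDHB13, and PCDHGA6, had few counts and wide standard errors.

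Of the 52 clustered protocadherins, 15 had enough counts to be tested and 1 was called, lower at 24 h, beside 17.7% of all genes tested. To show the promoters of the genes that led each cluster, the 250 bases before the start are printed from RefSeq (GRCh38.p14, plus strand), with the letters CGCT, or AGCG for the other strand, in capitals. CGCT is the core of the element known to be conserved in clustered protocadherin promoters. The windows are chr5:140806818-140807067 for PCDHA4, chr5:141094365-141094614 for PCDHB2, chr5:141412737-141412986 for PCDHGA10, and chr5:141475716-141475965 for PCDHGC3.
PCDHA4: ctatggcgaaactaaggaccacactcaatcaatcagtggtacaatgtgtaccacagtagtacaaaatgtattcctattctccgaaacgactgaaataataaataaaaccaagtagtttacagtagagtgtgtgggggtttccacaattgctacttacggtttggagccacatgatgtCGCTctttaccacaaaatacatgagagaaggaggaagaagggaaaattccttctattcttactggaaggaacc
PCDHB2: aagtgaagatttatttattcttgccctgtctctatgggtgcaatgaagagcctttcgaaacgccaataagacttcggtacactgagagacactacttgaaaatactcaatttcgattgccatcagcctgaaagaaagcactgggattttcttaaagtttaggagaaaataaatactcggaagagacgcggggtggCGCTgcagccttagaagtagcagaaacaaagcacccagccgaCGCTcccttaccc
PCDHGA10: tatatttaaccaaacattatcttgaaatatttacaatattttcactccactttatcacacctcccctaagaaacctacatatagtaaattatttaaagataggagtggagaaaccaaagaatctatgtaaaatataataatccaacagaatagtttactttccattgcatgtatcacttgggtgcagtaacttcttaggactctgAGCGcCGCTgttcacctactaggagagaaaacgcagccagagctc
PCDHGC3: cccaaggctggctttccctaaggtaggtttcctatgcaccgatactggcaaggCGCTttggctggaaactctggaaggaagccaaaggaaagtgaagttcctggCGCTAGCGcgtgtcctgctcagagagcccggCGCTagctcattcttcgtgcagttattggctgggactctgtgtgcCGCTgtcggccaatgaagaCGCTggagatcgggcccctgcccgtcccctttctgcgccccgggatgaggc

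RefSeq windows from 250 bases before to 50 after the start matched 68 of the 88 genes, in 87 windows. CGCT on either strand was found in 48 of 49 windows of clustered protocadherins (98.0%) and in 70.0% of all 35116 windows, so its presence alone separates few promoters. A gene can have more than 1 window. The longer word GCCGCTGT, which contains CGCT, was found in 12 of 23 gamma windows (52.2%) and in 1.63% of all windows. It was found in 0 of 13 alpha, 0 of 13 beta, and 1 of 4 type I classical cadherin windows. This word was picked after looking at these windows, and it occurs in the sequences of PCDHGA10 and PCDHGC3 above. A match describes letters and not a bound site.

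In the alpha cluster 1 of 15 genes was tested, PCDHA4, which took 82.7% of the counts of the cluster. Its raw counts were 88 and 109 at 24 h and 74 and 74 at 6 h. The libraries did not overlap, but the log2 fold change of 0.37 (SE 0.18) was not called (edgeR adjusted P = 0.0795). The other 14 alpha genes had at most 7 counts in any library, and 4 had none. In the beta cluster, whose genes are single exons, 6 of 16 genes were tested and 0 were called, and none had an adjusted P under 0.05. PCDHB2 took 48.9% of the beta counts, with 87 and 121 at 24 h and 112 and 114 at 6 h, which overlap. PCDHB10, PCDHB12, PCDHB13, PCDHB14, and PCDHB16 had log2 fold changes between -0.74 and 0.17, and their adjusted P ranged from 0.170 to 0.923.

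The gamma cluster was the most expressed, and it held the largest fall among the 30 tested genes. PCDHGC5 (ENSG00000240764, hg19 chr5:140868808-140892546) encodes a C-type gamma protocadherin, which in neurons binds a subunit of GABA receptors. It had 10 and 19 counts at 24 h and 206 and 256 at 6 h, so the time points were far apart. Normalized counts were 14.2 ± 6.03 at 24 h and 234 ± 16.4 at 6 h (SD, n = 2), 16.3-fold higher at 6 h, with a log2 fold change of -4.03 (SE 0.22, edgeR adjusted P = 7.49e-15). Its share of the gamma counts was 0.655% and 1.05% at 24 h, against 11.5% and 13.2% at 6 h.

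None of the other 7 tested gamma genes was called. PCDHGC3 (hg19 chr5:140855580-140892542), whose start lies 13.2 kb before that of PCDHGC5, had 601 and 762 counts at 24 h and 583 and 577 at 6 h. These overlapped after scaling, with a log2 fold change of 0.18 (SE 0.099, edgeR adjusted P = 0.108). PCDHGA10 took 41.4% of the gamma counts, with 646 and 706 at 24 h and 740 and 826 at 6 h. It fell by 0.26 on the log2 scale (SE 0.084, edgeR adjusted P = 0.00878), short of the size cutoff, and its adjusted P was 0.0554 with DESeq2 and 0.0828 without 24 h replicate 1. PCDHGA7, at 23 and 21 counts against 9 and 13, stood at 0.95 on the log2 scale (edgeR adjusted P = 0.0319) and missed the unadjusted P cutoff, and its adjusted P was 0.241 with DESeq2 and 0.0757 to 0.174 with any 1 library left out. PCDHGB6, PCDHGA9, PCDHGB2, and PCDHGA6 had log2 fold changes from -0.43 to 0.47, with adjusted P of 0.0834 and above. PCDHGC4, between PCDHGC3 and PCDHGC5, was not tested.

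Alpha genes overlap one another in the annotation, as do gamma genes, and share 3' exons. The counting program and its strand setting are not given in the sources used here, so single-gene counts are uncertain. Each cluster was also summed, but reads of shared exons that were left uncounted would be missing from the sums as well. The summed alpha counts were 105 and 125 at 24 h and 95 and 92 at 6 h, and the beta counts 195 and 240 at 24 h and 229 and 224 at 6 h. Normalized, these sums differed by a log2 ratio of 0.25 for alpha and -0.11 for beta. With 1 library left out, the alpha ratio ranged from 0.13 to 0.36 and the beta ratio from -0.25 to 0.016, so the sign for beta depends on the libraries used. The gamma sum was 1638 ± 166 normalized counts at 24 h and 1894 ± 45.0 at 6 h (SD, n = 2), a log2 ratio of -0.21. Without PCDHGC5, which was left out after its values were seen, the gamma sums were 1624 ± 160 and 1660 ± 61.5, a log2 ratio of -0.031. The sums are given as values and were not tested.

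**Figure D3:**
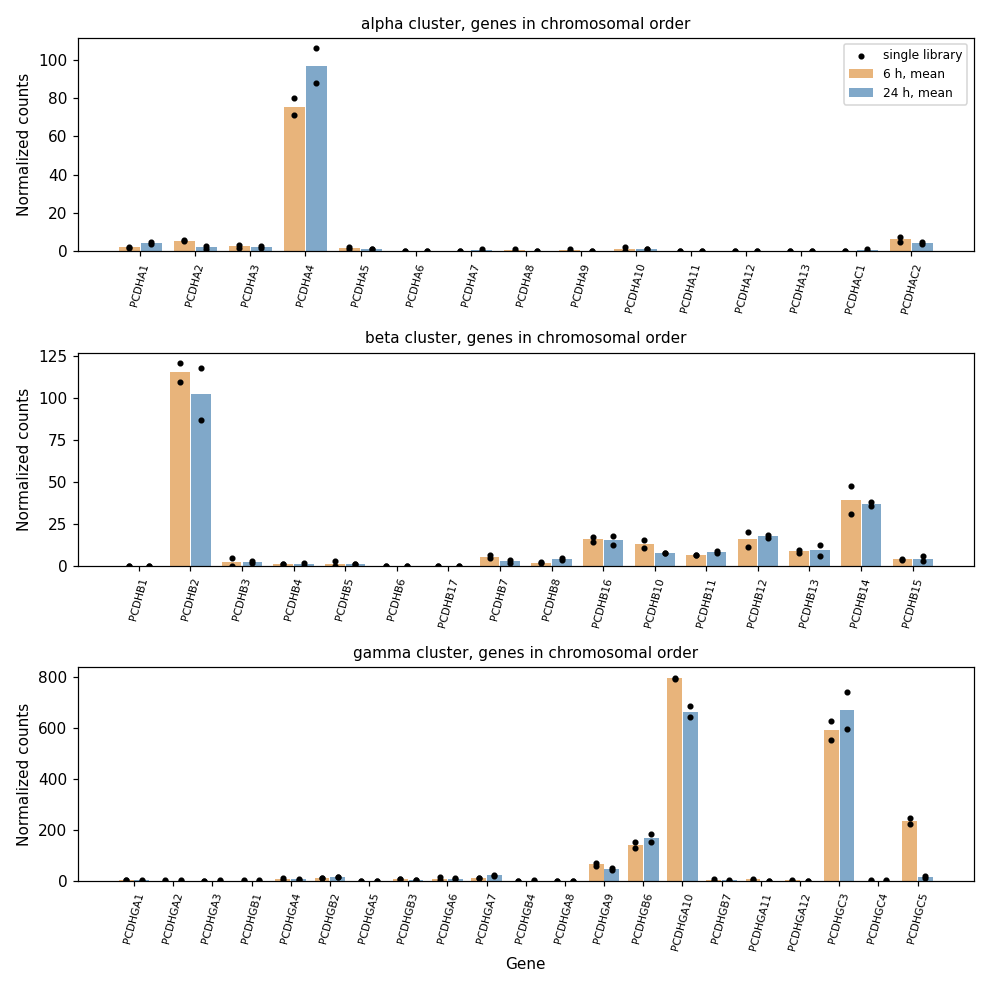
Normalized counts of the alpha, beta, and gamma protocadherin genes in chromosomal order, with bars for the mean of 2 libraries and points for single libraries. PCDHA4, PCDHB2, PCDHGA10, and PCDHGC3 stand above their neighbors at both times, and PCDHGC5 falls from 234 at 6 h to 14.2 at 24 h.

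Among the non-clustered protocadherins, 6 of 13 genes were tested, 3 were called lower, and 0 higher, beside 17.7% and 17.4% of all genes tested. PCDH7 (ENSG00000169851, hg19 chr4:30722037-31148422) encodes a delta-type protocadherin that also binds protein phosphatase 1. Its raw counts were 135 and 126 at 24 h and 899 and 970 at 6 h, with a wide gap between times. Normalized counts were 129 ± 8.40 at 24 h and 951 ± 28.2 at 6 h (SD, n = 2), 7.39-fold higher at 6 h, with a log2 fold change of -2.89 (SE 0.11, edgeR adjusted P = 9.73e-19). The RefSeq windows used held none for CDH16 and PCDHGC5, the called genes with the largest rise and fall, so the promoter of PCDH7 is shown. It lies at chr4:30720119-30720368 (GRCh38.p14, plus strand), with CGCT or AGCG in capitals at 4 places. CGCT on either strand was found in 11 of 15 windows of non-clustered protocadherins (73.3%), beside 70.0% of all windows.
PCDH7: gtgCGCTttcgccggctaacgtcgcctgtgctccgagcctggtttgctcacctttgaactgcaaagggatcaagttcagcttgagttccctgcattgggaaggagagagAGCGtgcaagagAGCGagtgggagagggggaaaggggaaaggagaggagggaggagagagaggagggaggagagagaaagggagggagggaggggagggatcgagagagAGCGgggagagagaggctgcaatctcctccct

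PCDH10 (hg19 chr4:134070470-134129356), a gene often silenced by promoter methylation in tumors, had 54 and 55 counts at 24 h and 112 and 141 at 6 h. The groups did not overlap, and the log2 fold change was -1.26 (SE 0.18, edgeR adjusted P = 8.89e-07). PCDH9 (hg19 chr13:66876967-67804468), a delta-type gene best known from brain, had 61 and 87 counts at 24 h and 118 and 114 at 6 h. The change was -0.70 on the log2 scale (SE 0.18, edgeR adjusted P = 0.0017), and the call was lost with DESeq2 (adjusted P = 0.0351), without 24 h replicate 1 (-0.47, adjusted P = 0.0487), and without 6 h replicate 1 (-0.59, adjusted P = 0.0298). PCDH1, PCDH12, and PCDH18 overlapped between times, with log2 fold changes of -0.024, 0.060, and 0.43 and adjusted P of 0.912, 0.908, and 0.174. PCDH12 overlaps RNF14, whose counts were far higher, so reads of the pair may not be separable. PCDH15, known from the hair cells of the inner ear, was below the filter with 1 and 3 counts at 24 h and 10 and 10 at 6 h.

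Markers of other cell types also moved between the time points. Of 4 endothelial markers 3 were measured, and KDR fell, with raw counts of 44 and 22 at 24 h and 485 and 517 at 6 h (log2 fold change -3.97, edgeR adjusted P = 4.83e-17). The endothelial markers summed to 28.2 to 53.8 normalized counts at 24 h and 514 to 548 at 6 h, beside CDH5 at no more than 1 count. Most of this sum was KDR in every library. VWF had 3 and 5 raw counts at 24 h and 16 and 11 at 6 h, and TEK had 7 and 2 at 24 h and 7 and 8 at 6 h. The 4 neuron markers summed to 39.9 to 52.8 normalized counts at 24 h and 64.8 to 71.0 at 6 h, with RBFOX3 higher and SNAP25 and SYT1 lower. Among the mesenchymal markers COL1A1 and PDGFRB were called lower, VIM and FN1 were not called, at -0.083 and 0.37 on the log2 scale (edgeR adjusted P = 0.417 and 0.00883), and COL1A2 had no count. The epithelial markers moved both ways: KRT19 fell by 1.59 and KRT7 rose by 0.84 on the log2 scale (edgeR adjusted P = 9.57e-08 and 4.49e-07), while KRT8 and KRT18 were not called, at -0.048 and 0.37 (edgeR adjusted P = 0.569 and 0.000185). EPCAM, below the filter, had 1 and 1 counts at 24 h and 11 and 6 at 6 h. The part of these markers in the changes of the cadherins was not tested.

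Of the 67 partner and regulator genes listed for the family, 52 were tested, 16 were called higher, and 11 lower, with a median log2 fold change of 0.23. Over all genes tested, 17.4% were called higher and 17.7% lower, with a median of 0.0029, and the counts of the single lists are to be read against the same shares. With DESeq2 the partner counts were 12 higher and 8 lower. With at least 10 counts in every library they were 14 and 10, and with library size alone 14 and 11. The other alternatives that left no library out gave 15 or 16 higher and 11 lower. The list of catenins also holds VCL, and 4 of its 10 tested genes were higher and 1 lower. JUP, the plakoglobin gene, had 5106 and 5983 counts at 24 h and 1803 and 2048 at 6 h (log2 fold change 1.48, edgeR adjusted P = 2.55e-15). Several partner genes overlap others in the annotation, among them JUP (EIF1, GAST, HAP1, and KRT17), CTNND1 (TMX2-CTNND1), CLSTN1 (PIK3CD), and RAD21 (UTP23). Reads of such genes may not be separable. CTNND1, the p120-catenin gene, and VCL, the vinculin gene, rose by 0.74 and 0.73 on the log2 scale, CTNNA3 rose by 1.48 from few counts, and PKP4 fell by 0.83. CTNNB1 and CTNNA1, the beta- and alpha-catenin genes, were not called, at 0.13 and 0.16. Among 4 tested desmosomal genes, DSG2, with 5170 and 5383 counts at 24 h and 8175 and 8310 at 6 h, fell by 0.69 on the log2 scale (edgeR adjusted P = 6.74e-09), PKP2 rose by 0.64, and DSC2 and PKP3 were not called, at -0.056 and 0.23.

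Of 10 tested genes of the wider cadherin superfamily, 6 were called higher and 1 lower, beside 17.4% and 17.7% of all genes tested. FAT4, a giant cadherin of planar polarity and growth control, had 495 and 566 counts at 24 h and 143 and 168 at 6 h (log2 fold change 1.72, edgeR adjusted P = 3.15e-13). CLSTN1, the calsyntenin 1 gene, had 21352 and 25989 counts at 24 h and 9722 and 10146 at 6 h (log2 fold change 1.20, edgeR adjusted P = 2.46e-12). The planar polarity genes CELSR1, CELSR2, and CELSR3 rose by 0.65, 0.69, and 0.67 on the log2 scale. FAT2 rose by 1.47 from few counts, and DCHS1, which encodes the ligand of FAT4, fell by 1.15, also from few counts. The nectins, immunoglobulin-like adhesion proteins of the same junctions, split: NECTIN3 rose by 1.15, and NECTIN4 fell by 1.67 from few counts. NECTIN4 had 10 and 6 counts at 24 h and 26 and 24 at 6 h. NECTIN1, NECTIN2, and AFDN were not called, at -0.20, 0.23, and -0.30.

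Among 7 genes of cadherin shedding and gamma-secretase, PSEN2 rose by 1.34 on the log2 scale and none was called lower. Of the 7 repressors of cadherin genes, 2 were higher and 4 lower. SNAI1 had 207 and 222 counts at 24 h and 81 and 93 at 6 h (log2 fold change 1.26, edgeR adjusted P = 2.40e-08), and SNAI2 rose by 0.91. TWIST1, TWIST2, ZEB1, and ZEB2 fell by 1.06, 0.82, 0.60, and 0.58 on the log2 scale, so the families of repressors moved in opposite directions while CDH1 stayed below the filter. Of 9 regulators of the protocadherin clusters, RAD21, a cohesin subunit, had 12898 and 12429 counts at 24 h and 27230 and 28711 at 6 h (log2 fold change -1.19, edgeR adjusted P = 7.42e-13). SMC1A, another cohesin subunit, fell by 0.65, the DNA methyltransferase gene DNMT3B fell by 0.71, and WIZ rose by 0.52. The other 5 were not called: SMC3, also a cohesin subunit, at -0.078, CTCF at -0.22, NIPBL at -0.31, SMCHD1 at -0.40, and WAPL at 0.33.

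**Figure D4:**
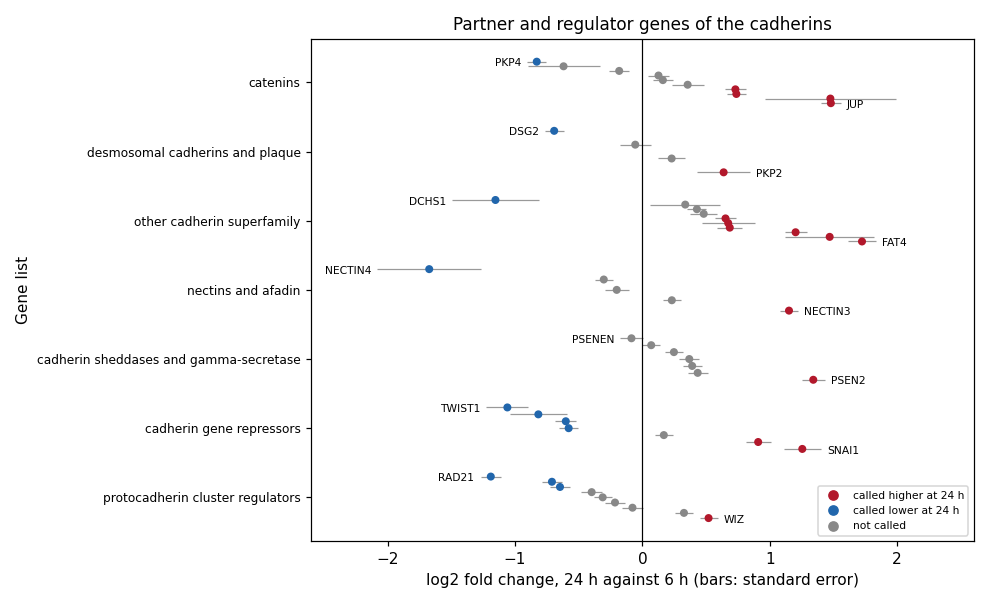
Log2 fold change of the 52 tested partner and regulator genes by list, 24 h against 6 h, with bars for the standard error and the lowest and highest gene of each list named. Red points are called higher (16), blue points lower (11), and gray points not called. JUP, FAT4, and PSEN2 lie at the right of their lists and RAD21 and TWIST1 at the left.

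The 58 genes below the filter included 16 with no count in any library, and 37, these included, had at most 3 counts in every library. The remaining 21 had over 3 counts in some library and reached at most 16, in CDH10. CDH15, of muscle, and CDH13, which is anchored to the membrane by lipid, were also below the filter. Among the type II cadherins 10 of 13 genes were below it, and among the alpha protocadherins 14 of 15.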

How the data were processed

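RNA of TPC1 cells was measured in 4 libraries, grouped by the treatment label. The authors aligned reads to hg19 (STAR 2.3 in the submitters' processing notes; the methods name a later version) and deposited raw counts per gene, along with a signal per gene, the count divided by a DESeq2 size factor, which was not used for tests. Their deposited comparison (mean, log2 fold change, error, statistic, P and adjusted P) was not used. Positions follow hg19, and promoter windows follow RefSeq GRCh38.p14. The number of unused columns of single samples was 0.

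The test across all genes was edgeR 4.0.16 in R 4.3.3 on raw counts (filterByExpr, TMM, quasi-likelihood test, time as factor, Benjamini-Hochberg adjustment over 12876 genes). Calls used the methods' cutoffs (0.5 and 0.01) in both directions. Normalized counts are raw counts divided by each library's TMM-scaled size, itself divided by its mean over libraries. Levels per kb used the longest protein-coding GENCODE v44 transcript, found for all but PCDHB16 and PCDHB17. Standard errors came from the fold change and F statistic. Intervals cover counting error only. The procedure was tested on simulated data.

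The genes and lists were chosen with earlier results of these data known. Counts per library are given for called genes and for those with a mean of at least 500, partners are named if called or in a list with 5 or fewer tested genes, and other names were chosen after their values were seen. The result of 1 marker gene is not reported here. Alternatives were DESeq2 1.42.0, scaling by library size or by upper quartile, omitting the filter, at least 10 counts in every library, an adjusted P under 0.01, a replicate block, and leaving out each library. Plots used matplotlib 3.10.9 in Python 3.11.15.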

Additional observations from a re-analysis of the deposited data

How the results depend on the processing

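The number of cadherin and protocadherin genes higher at 24 h was 2 and fell to 1 with DESeq2 and to 1 with at least 10 counts in every library, and ranged from 1 to 2 with each library left out. CDH20 was the gene lost each time, under the minimum because it left the test, and the cause of the other losses was not tested. The number lower stayed between 5 and 7. The median log2 fold change of the tested genes, 0.051, ranged from -0.058 to 0.24 with each library left out, the highest without 6 h replicate 1. The log2 ratio of the summed gamma counts ranged from -0.32 to -0.11 with each library left out, the lowest without 24 h replicate 2, and was -0.031 without PCDHGC5. Of genes that were not called, those that changed sign with a library left out had log2 fold changes of -0.40 to 0.043 in PCDHB2, -0.21 to 0.62 in PCDHB12, -0.058 to 0.55 in PCDHB13, -0.37 to 0.26 in PCDHB14, -0.31 to 0.19 in PCDHB16, -0.33 to 0.24 in PCDH1, -0.33 to 0.52 in PCDH12, -0.997 to 0.93 in CDH26, and -0.62 to 1.09 in PCDHGA6. With upper quartile scaling PCDH1 stood at 0.0047. The replicate numbers are shared by both times, but the labels do not say what they mark, and the correlation of same-numbered deviations was 0.129 over 2 pairs. A replicate block in the fit gave 2 higher and 6 lower genes, and 2283 and 2313 over all genes. Under the block PCDHGC3 reached an adjusted P of 0.0366, below the size cutoff. Without 24 h replicate 1 the adjusted P of PCDHA4, PCDHGB6, and PCDHGC3 was 0.0423, 0.0375, and 0.00557. Depth limits the 58 untested genes.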
